A study of Saccharomyces cerevisiae with 3 samples.

Results

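The COS genes are a family of yeast genes that lie close to chromosome ends. There are 9 named members here, COS1, COS4, COS5, COS6, COS7, COS8, COS9, COS10 and COS12, and they were found by gene symbol in the platform annotation. Of these, 7 have a probe set, 1 each, among 5498 probe sets of Saccharomyces cerevisiae genes (5449 genes). COS1 and COS5 have no probe set under their own symbol. COS2, a further COS gene that was not among the named members, has 1 probe set and is given beside them. COS3, the remaining COS gene of the RefSeq gene table among COS1 to COS12, has none.

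Cos proteins are integral membrane proteins of the endosomal system. In budding yeast they carry ubiquitin and help to gather other surface proteins into the vesicles of the multivesicular body, from which cargo is passed to the vacuole and degraded. Their genes stand in regions where the Sir proteins, which act with the NAD-dependent deacetylase Sir2, can repress transcription, and members of the family are so alike in sequence that a probe for one can also bind the transcript of another.

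The arrays came from Saccharomyces cerevisiae cells in stationary phase, grown without treatment in synthetic medium at 30 °C, and each was hybridised with biotinylated cRNA made from 6 µg of total RNA. All 3 arrays are labelled with the haploid background BY4741, of mating type MATa, which carries the alleles ura3Δ 0, met15Δ 0, leu2Δ 0 and his3Δ 1. On 2 arrays the genotype is given as RPA12 delta, a deletion of a small subunit of RNA polymerase I, and on 1 array as wild type. The growth text supplied with the wild-type array also names cells lacking RPA12; its genotype and description were followed. The labels do not say whether the 2 deletion-labelled arrays hold separate cultures. Each p-value therefore rests on the spread between those arrays, in the probe set itself and, through limma, over all tested probe sets. That spread may be technical. The cultures are bulk samples, in which fewer cells with a transcript and less transcript per cell cannot be told apart.

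The arrays went against their labels in several genes. RPA12 itself read 5.74 and 5.79 on the deletion-labelled arrays and 3.60 on the wild-type array, although the place of its probes within the gene is not known here. MET17, also called MET15 and labelled as deleted on all 3 arrays, read 9.43 and 9.36 against 1.56. LYS2 read 1.42 and 0.97 against 6.08, MF(ALPHA)1, an α-cell gene, 8.94 and 8.80 against 1.75, and HMRA1, an a-cell sequence, 1.25 and 1.09 against 7.41. The 5 α-cell markers gave 4 rises and no fall (median difference 4.74), and the 7 a-cell markers 2 rises and 1 fall (median 0.13). By the same rule, given below, 23.8% of all tested probe sets rose and 10.2% fell. The a-cell shares of 28.6% and 14.3% lie near these. Both a-cell rises, ASG7 and BAR1, were under 2-fold after quantile normalization again and after median centring, which left 1 fall alone and medians of -0.14 and -0.12. Of all tested probe sets 18.3% and 18.8% rose under these scalings, and 14.1% and 14.8% fell. Array controls were lower as well, with medians of -3.75 over 42 poly-A spike-in sets and -1.48 over 27 hybridization control sets, so that a processing difference and the genotype cannot be told apart. Both deletion-labelled arrays show this, so no comparison without them can be made. The part of strain, mating type and processing in the differences below was not tested.

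Of the 7 COS probe sets, 5 rose and none fell on the deletion-labelled arrays relative to the wild-type array. Here "rose" or "fell" stands for a limma Benjamini-Hochberg adjusted p under 0.05, over all 5498 probe sets, together with a difference of at least 2-fold. Across all tested probe sets 23.8% rose (1310) and 10.2% fell (562) by the same rule, so the COS members stood at 5 of 7 where under 1 in 4 of all tested sets rose. COS7, COS9, COS6, COS8 and COS4 were the members that rose, by between 2.26-fold and 10.2-fold. The median difference of the 7 members was 1.39 on the log2 scale, and that of all tested probe sets was 0.19. These counts and medians describe probe sets that can share target sequence, and the members are not replicates of one another.

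The values are log2 RMA signals, and a background level was set for each array at the value under which 95% of 1746 probe sets for another yeast species lay. That level was 1.42 on each deletion-labelled array and 1.84 on the wild-type array. Of the 7 COS probe sets, 6 lay above it in both groups, and COS10 in neither.

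**Figure D1:**
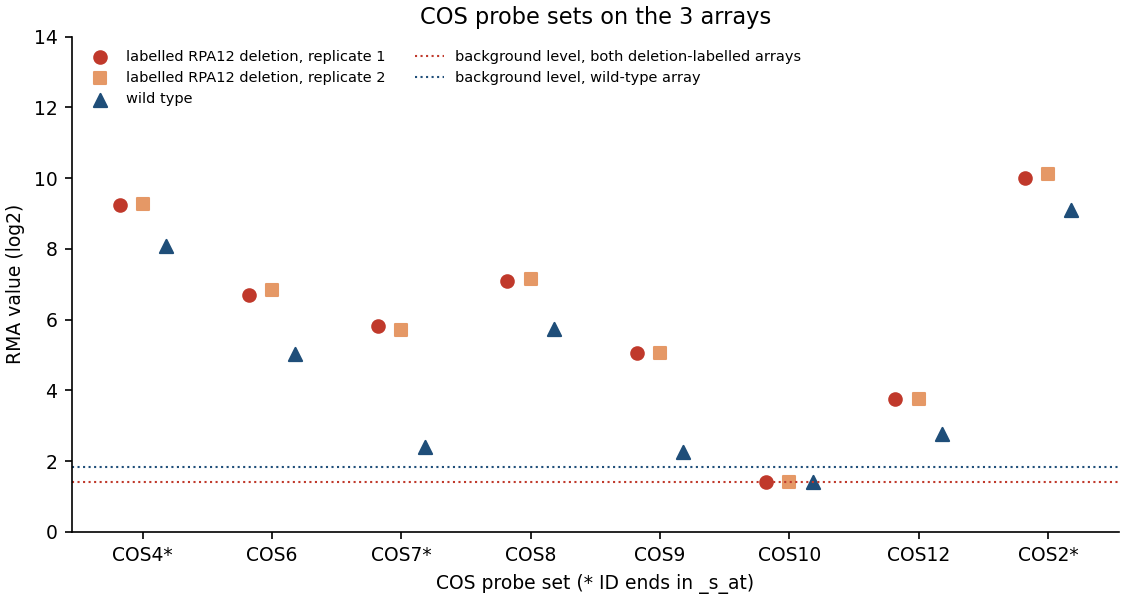
RMA value (log2, vertical axis) of each COS probe set (horizontal axis) on the deletion-labelled arrays, replicates 1 and 2, and on the wild-type array, with 1 point per array and dotted lines at the background levels of 1.42 and 1.84. For every COS probe set other than COS10, both deletion-labelled arrays lie above the wild-type array, and COS10 lies at 1.42 on all 3.

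COS7 showed the largest difference of the family. Its probe set (an _s_at set, locus YDL248W, left arm of chromosome IV) read 5.82 and 5.71 on the deletion-labelled arrays and 2.41 on the wild-type array. Both deletion-labelled arrays were far above the wild-type array, which lay 0.57 above its background level. The difference was 3.35 (SE 0.079), a 10.2-fold rise with a limma adjusted p = 0.0102, and 98.2% of tested probe sets had a smaller signed difference. The wild-type value is close to background, where RMA compresses differences.

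COS9 had the next largest difference. Its probe set (an _at set, locus YKL219W, left arm of chromosome XI) read 5.05 on both deletion-labelled arrays and 2.25 on the wild-type array. The wild-type signal was again only a little above its background level, by 0.40. The rise was 6.97-fold, a difference of 2.80 (limma adjusted p = 9.15e-05). The 2 deletion-labelled arrays held exactly the same value, so this small p reflects a measured spread of 0 and says little about the error of a repeated culture.

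COS6 and COS8 were clearly above background on every array. COS6 (an _at set, locus YGR295C, right arm of chromosome VII) read 6.71 and 6.84 against 5.02 on the wild-type array. Its difference of 1.75 (SE 0.10) was a 3.37-fold rise with a limma adjusted p = 0.0250. COS8 (an _at set, locus YHL048W, left arm of chromosome VIII) read 7.09 and 7.16 against 5.74. It rose 2.62-fold, a difference of 1.39 (SE 0.053) with a limma adjusted p = 0.0163. In both cases the gap between groups was more than 10 times the gap between the deletion-labelled arrays, which was 0.13 for COS6 and 0.069 for COS8. Such a ratio is not particular to them. Over all tested probe sets the standard deviation was 1.28 for the difference between groups and 0.081 for that between the deletion-labelled arrays.

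COS4 rose by a smaller factor. Its probe set (an _s_at set, locus YFL062W, left arm of chromosome VI) read 9.26 and 9.28 on the deletion-labelled arrays and 8.09 on the wild-type array. The deletion-labelled arrays were 0.023 apart and the wild-type array was 1.17 below their mean (SE 0.017), a 2.26-fold rise with a limma adjusted p = 0.0063. After median centring the difference was 0.92, under 2-fold.

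COS12 stood at the edge of the 2-fold rule and did not pass it. Its probe set (an _at set, locus YGL263W, left arm of chromosome VII) read 3.77 on both deletion-labelled arrays and 2.77 on the wild-type array. All 3 values lay above background. The difference was 0.998, or 1.998-fold, with a limma adjusted p = 9.19e-05 that rests on 2 identical values. After the 3 arrays were quantile-normalized again, the values became 3.50 and 3.49 against 3.27, and the difference 0.22.

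COS10 could not be followed. Its probe set (an _at set, locus YNR075W, right arm of chromosome XIV) read 1.42 on all 3 arrays, exactly the same deposited value, and was not above background in either group. A difference in COS10 was not detectable on these arrays.

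COS2 lay close to the 2-fold limit as well. Its probe set (an _s_at set, locus YBR302C, right arm of chromosome II) read 9.998 and 10.13 on the deletion-labelled arrays and 9.10 on the wild-type array. The difference was 0.96 (SE 0.10), 1.95-fold, with a limma adjusted p = 0.0468, so that COS2 passed the p threshold but not the 2-fold minimum. Its direction was that of the 6 members above background.

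The identity of the transcript behind some of these signals is uncertain. Identifiers that end in _s_at mark sets whose probes match more than one transcript, and COS4, COS7 and COS2 have such sets. The other COS genes that these sets read are not known here, and COS1, COS3 and COS5 have no set of their own. The other 5 member sets, for COS6, COS8, COS9, COS10 and COS12, carry the plain _at ending, and none ends in _x_at. Among these 5, COS6, COS8 and COS9 rose, against 24.1% of the 5370 probe sets left when all _s_at and _x_at sets were removed.

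The differences of the 5 members that rose ran from 1.17 for COS4 to 3.35 for COS7. The 2 deletion-labelled arrays were at most 0.134 apart in any member, but the error of the single wild-type array is not known, and no test between members was made. COS7 and COS9 had the wild-type values nearest to background among the members above it, and the largest differences. These measures share the wild-type array, so their relation was not tested. COS9, COS10 and COS12 were 3 of 2431 tested probe sets (44.2%) whose 2 deletion-labelled values were equal to every deposited digit.

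The scaling of the arrays changed the size of the differences. The median of all tested probe sets moved from 0.19 to 0.04 after quantile normalization again and to -0.06 after median centring. COS7 stood at 2.87 and 3.10 under these scalings, COS9 at 2.40 and 2.55, COS6 at 1.53 and 1.503, and COS8 at 1.26 and 1.14. COS4 stood at 1.13 and 0.92. Under quantile normalization again 5 COS probe sets rose, where 18.3% of all tested probe sets rose and 14.1% fell. Under median centring 4 rose, against 18.8% of all probe sets that rose and 14.8% that fell. The share of higher among all calls was 70.0% on the deposited values, 56.6% after quantile normalization again and 55.9% after median centring.

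**Figure D2:**
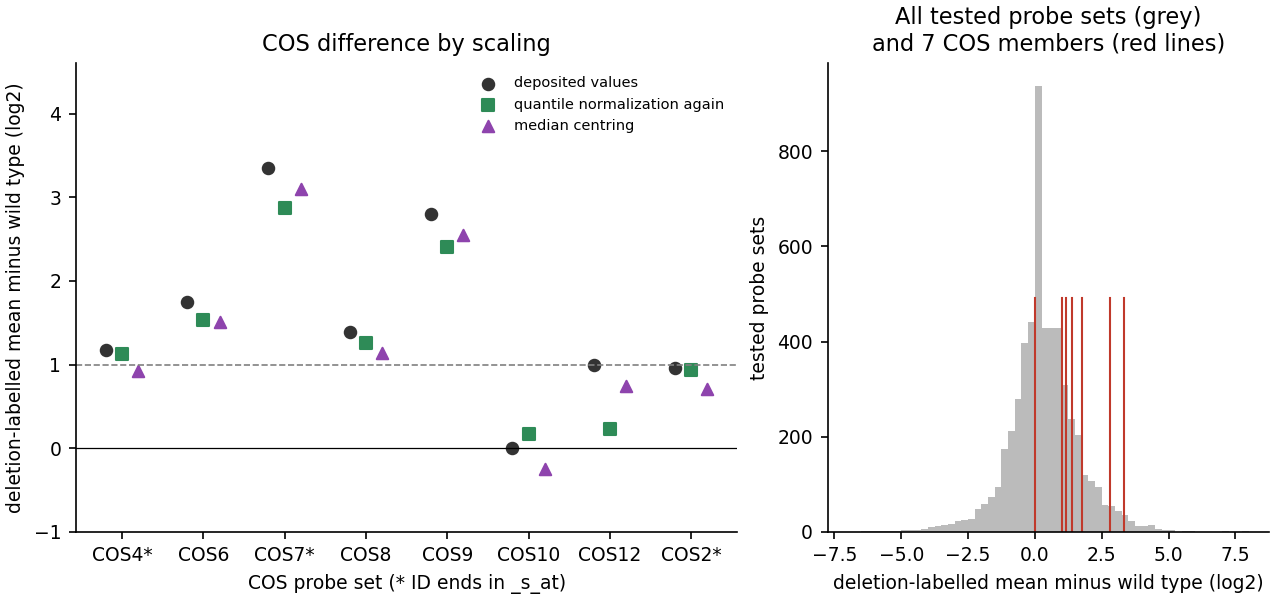
Left, difference between the mean of the deletion-labelled arrays and the wild-type array (log2, vertical axis) for each COS probe set under 3 scalings, with a dashed line at 2-fold. Right, the number of tested probe sets (vertical axis) at each difference on the deposited values (log2, horizontal axis), with red lines at the 7 COS members. COS7 and COS9 stay above 2.40 under each scaling, COS12 drops from 0.998 to 0.22 under quantile normalization again, and COS10 lies between -0.25 and 0.17.

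On the deposited values, the measured genes nearest to a COS gene were called about as often as the array as a whole. The RefSeq gene table of assembly R64, used for gene order alone, places COS2, COS5, COS7 and COS12 as the outermost protein-coding gene of their chromosome end, COS1, COS3 and COS6 as the second, COS8 and COS10 as number 4, COS9 as number 5 and COS4 as number 6. The nearest measured genes on either side of the 11 COS genes gave 16 probe sets for 15 genes, with 4 rises (25%), 1 fall (6.25%) and a median difference of 0.17, against 23.8% and 10.2% of all tested probe sets. There were 3 rises after quantile normalization again and 2 after median centring, with 1 fall in each. Of all tested probe sets 18.3% and 18.8% rose under these scalings, and 14.1% and 14.8% fell. Some of these neighbours are separated from the COS gene by genes that were not measured. Beside COS9, FRE2, a ferric reductase, read 3.72 on both deletion-labelled arrays against 2.49, and SRY1, an enzyme that breaks down hydroxyaspartate, read 6.16 and 6.23 against 4.24. FRE2 rose 2.36-fold (limma adjusted p = 9.15e-05) and SRY1 3.89-fold (limma adjusted p = 0.0115), but the difference of FRE2 was under 2-fold at 0.52 after quantile normalization again and at 0.989 after median centring.

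Beside COS8 the direction was opposite. ARN2, a transporter of iron siderophores, read 4.86 and 4.99 against 7.34 and fell 5.35-fold (limma adjusted p = 0.0179), while YHL048C-A, on the other side of COS8, read 4.72 on all 3 arrays. Beside COS4, DDI3 read 6.25 and 6.33 against 2.17 and rose 17.4-fold (limma adjusted p = 0.0069). Its set also ends in _s_at, and DDI3 has a near-identical copy, DDI2, so the source of this signal is uncertain. On the other side of COS4, YFL064C read 2.64 on both arrays against 2.58.

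The neighbours of COS6, COS7 and COS12 were under 2-fold. MAL11, a maltose transporter separated from COS6 by 2 genes, read 5.66 on both deletion-labelled arrays against 5.49. MPH2, a maltose permease next to COS7, has 2 probe sets with differences of 0.39 and -0.12, of which the first had a wild-type value below background. YGL262W next to COS12 read 1.75 and 1.47 against a wild-type value of 1.23 that was not above background. Beside COS10, AIF1, a mitochondrial cell death protein, read 6.77 and 6.85 against 5.59 and rose 2.34-fold (limma adjusted p = 0.0231), though its difference was 0.97, under 2-fold, after median centring, while YNR075C-A was not above background on any array.

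The COS genes without a probe set have measured neighbours, which were also under 2-fold. AAD14, the nearest to COS1, differed by 0.66, YML131W next to COS3 by 0.17 and AAD10, the nearest to COS5, by -0.58. AAD14 and AAD10 are each separated from the COS gene by 4 genes. PAU24 next to COS2 differed by -0.16.

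**Figure D3:**
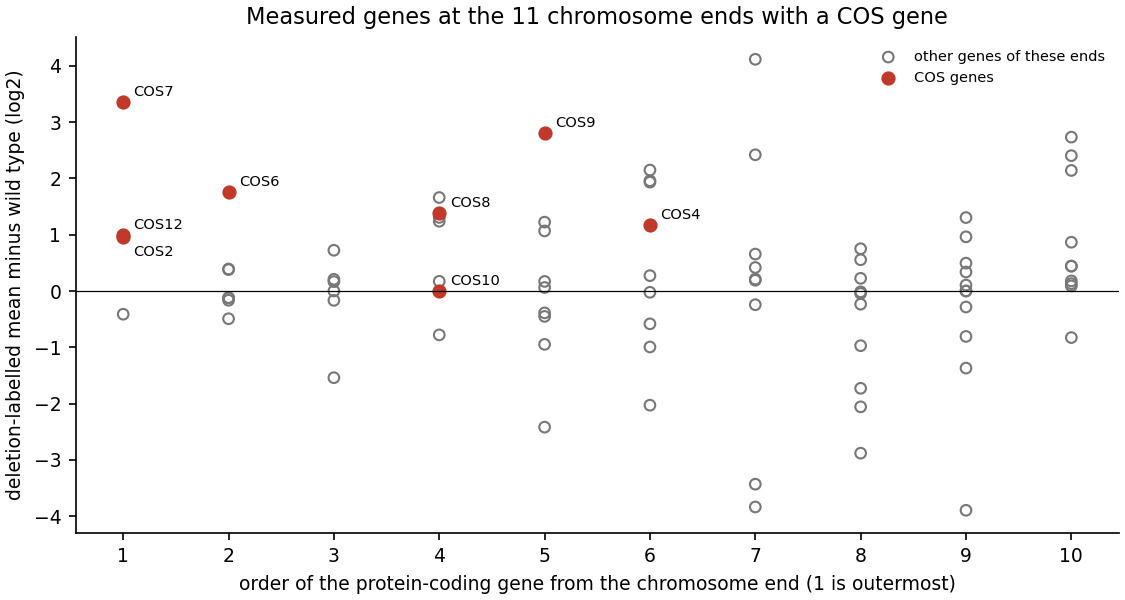
Difference between the mean of the deletion-labelled arrays and the wild-type array (log2, vertical axis) for the measured genes among the 10 outermost protein-coding genes of the 11 chromosome ends with a COS gene, by their order from the end (horizontal axis). Each point is 1 probe set, COS genes are filled and named, and the open points lie on both sides of 0.

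Genes of chromosome ends as a whole were also counted, a comparison added after the values were seen. Of all tested probe sets 23.8% rose and 10.2% fell. These shares were 18.3% and 14.1% after quantile normalization again, and 18.8% and 14.8% after median centring. The 10 outermost protein-coding genes of the 11 ends with a COS gene, COS genes left out, were read by 74 probe sets. Of these 12 rose (16.2%) and 10 fell (13.5%), with a median of 0.12, and under each other scaling 11 rose and 16 fell. At the ends without a COS gene 45 of 165 probe sets rose (27.3%) and 21 fell (12.7%), with a median of 0.14. There 32 rose and 27 fell after quantile normalization again, and 36 rose and 26 fell after median centring. Both medians are near the 0.19 of all tested probe sets. No test of the COS members against these genes was made.

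The DUP240 genes, a membrane protein family related in sequence to COS, had the highest median of the 9 related gene lists described here and in the plot of lists. Of 10 listed genes 5 were measured, by 6 probe sets, with 4 rises (66.7%), no fall and a median difference of 1.06. Of all tested probe sets 23.8% rose and 10.2% fell, and 2 of the 4 rises here belong to 1 gene, MST28. MST28, which binds coat proteins of transport vesicles, has 2 sets. The _s_at set read 6.19 and 6.18 on the deletion-labelled arrays against 4.24, a 3.85-fold rise (limma adjusted p = 0.0015). The other set read 4.68 on both arrays against 1.68, which is not above background, and rose at least 7.16-fold (limma adjusted p = 9.15e-05), where "at least" means that the wild-type value was raised to the background level. UIP3 read 8.07 and 8.06 against 6.95 and rose 2.16-fold, and PRM8 read 6.15 and 6.05 against 5.09 and rose 2.02-fold (limma adjusted p = 0.0050 and 0.0317). The difference of PRM8 was 0.77 after quantile normalization again, and those of PRM8 and UIP3 were 0.76 and 0.86 after median centring, all under 2-fold. Under these scalings 3 and 2 of the 6 sets rose, where 18.3% and 18.8% of all tested probe sets rose.

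On the deposited values, genes listed under telomeric silencing, which restrains transcription near chromosome ends, were called about as often as the array as a whole. The list is broader than that process, and not all of its genes act mainly at chromosome ends. The 18 listed genes, all measured, gave 4 rises (22.2%) and 2 falls (11.1%), close to the 23.8% and 10.2% of all tested probe sets, and their median difference was 0.05. The count was 2 rises and 5 falls after quantile normalization again, where 18.3% of all tested probe sets rose and 14.1% fell. After median centring it was 2 rises and 3 falls, where 18.8% rose and 14.8% fell. SIR1, which helps to establish silencing at the silent mating loci, read 6.07 and 6.20 against 3.77 and rose 5.15-fold (limma adjusted p = 0.0180). RFM1, which joins the repressor Sum1 to the deacetylase Hst1, read 3.84 on both arrays against 1.75, not above background, and rose at least 3.98-fold (limma adjusted p = 9.15e-05). SUM1 itself fell 2.54-fold, from 6.98 to 5.65 and 5.63 (limma adjusted p = 0.0060). The core silencing genes SIR2, SIR3 and SIR4, named here outside the rule for named genes, differed by -0.53, 0.92 and 0.00 and were under 2-fold. Quantile normalization again placed the list's median at -0.29.

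Genes of NAD synthesis and salvage, which supply the cofactor of Sir2, gave 4 rises (28.6%) and 1 fall (7.14%) among 14, near the 23.8% and 10.2% of all tested probe sets, with a median of 0.24. Both other scalings left 3 rises, since URH1 was then under 2-fold at 0.41 and 0.93, and median centring gave 2 falls. Of all tested probe sets 18.3% rose after quantile normalization again, and 18.8% rose and 14.8% fell after median centring. NMA1, a nicotinate mononucleotide adenylyltransferase, read 5.77 on both deletion-labelled arrays against 2.27 and rose 11.3-fold (limma adjusted p = 9.15e-05). NRK1, nicotinamide riboside kinase, read 6.88 and 6.90 against 3.91 and rose 7.92-fold (limma adjusted p = 0.0021). BNA1, of de novo NAD synthesis, read 9.91 and 9.92 against 7.54 and rose 5.18-fold (limma adjusted p = 5.66e-04). The fall was BNA2, which read 5.35 and 5.58 against 7.29 and fell 3.56-fold (limma adjusted p = 0.0429), and it fell under each scaling. BNA4, BNA5, BNA6 and BNA7 differed by 0.73, -0.41, 0.00 and -0.08 and were not called. BNA2 and these genes are named outside the rule for named genes.

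Few genes of the machinery that Cos proteins work with passed the rule. Rises were below the 23.8% of all tested probe sets, while falls lay on both sides of the 10.2%. Of 20 genes of the ESCRT complexes and multivesicular body formation 1 rose and 1 fell (5% each), with a median of 0.00. Quantile normalization again left no rise, where 18.3% of all tested probe sets rose. Median centring gave 2 falls, where 14.8% of all tested probe sets fell. SRN2, an ESCRT-I subunit, read 5.23 and 5.34 against 3.93 and rose 2.56-fold (limma adjusted p = 0.0271), but its difference was 0.83 after quantile normalization again. VTA1, which assists the ATPase Vps4, read 4.93 on both arrays against 6.10 and fell 2.25-fold (limma adjusted p = 9.15e-05). Of 17 genes for the ubiquitin ligase Rsp5 and its adaptors 1 rose (5.88%) and 2 fell (11.8%), with a median of -0.04. ART5 rose 3.08-fold, from 2.14 to 3.77 on both arrays, CSR2 fell 6.06-fold, from 7.31 to 4.70 and 4.72, and ROD1 fell 2.25-fold, from 4.74 to 3.65 and 3.49 (limma adjusted p = 9.15e-05, 0.0026 and 0.0470).

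**Figure D4:**
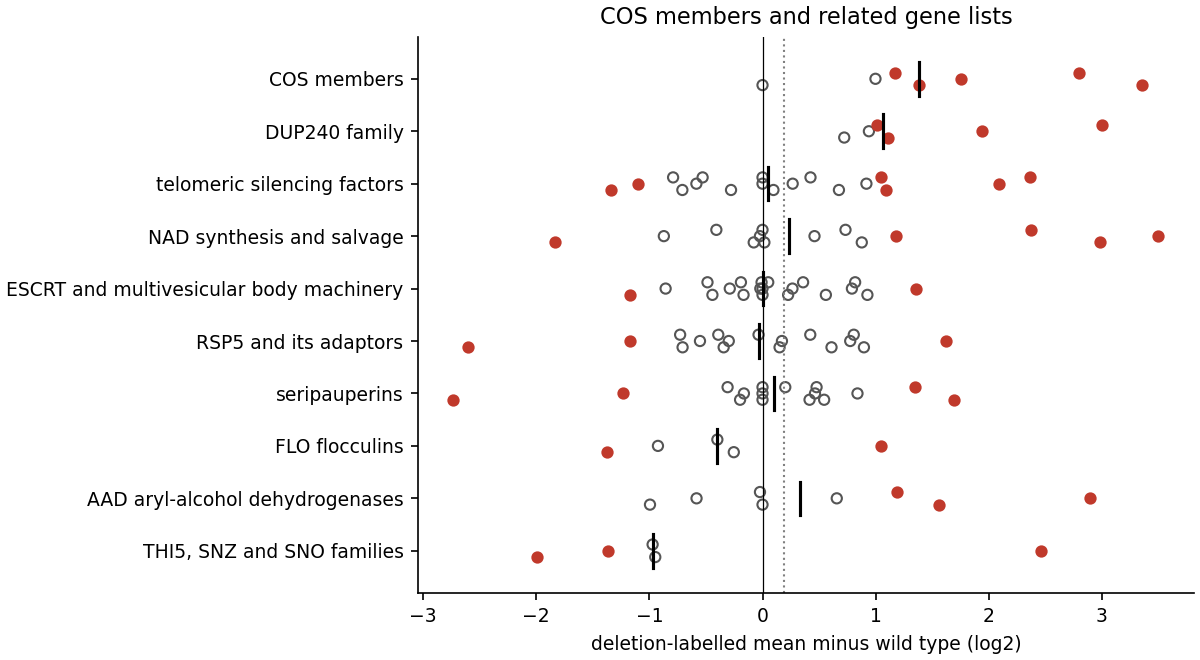
Difference between the mean of the deletion-labelled arrays and the wild-type array (log2, horizontal axis) for each probe set of the COS members and of 9 related gene lists (vertical axis). Filled points rose or fell, open points did not pass, black bars are list medians and the dotted line is the median of all tested probe sets, 0.19; the COS bar stands at 1.39 and the DUP240 bar at 1.06.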

How the data were processed

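The deposited values are log2 probe-set signals made by the authors with RMA in Affymetrix Expression Console, per the submitters' processing notes. Neither versions nor the arrays of each RMA run are named in the sources used here. This method removes background and usually brings arrays to a common distribution, but the deposited arrays differ, with medians over the tested probe sets of 5.74, 5.74 and 5.49. The values were used as deposited, and 2 other scalings were tried.

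Of 10928 probe sets, 7244 had 1 gene symbol, 1 had several and 3683 were not listed. Of the first, 5498 belong to S. cerevisiae (12 symbols updated through gene identifiers and the RefSeq table of assembly R64) and 1746 to another yeast species. The number of arrays limits the precision.

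Each difference is the mean over the 2 deletion-labelled arrays less the value on the single wild-type array. The test was limma (version 3.58.1, R 4.3.3), by lmFit and eBayes and two-sided, with 1 residual degree of freedom, and the lone wild-type array is assumed to vary like the others. Because exact ties make small p-values, a call also needed a 2-fold difference. The eBayes step adjusts each variance with the spread over all tested probe sets, 44.2% of which are tied. The ties can therefore also make the p-values of untied probe sets smaller. The procedure was tested on simulated data, in which the wild-type array had the same noise as the others. No strain or processing difference between the groups was simulated, so the simulation cannot show how calls behave under one. No list or family was tested as a set. All COS probe sets, the nearest measured gene on each side, up to 3 called genes per list (all of lists of up to 6 genes) and 5 label check genes are named. Members, lists and rules were chosen with earlier results of these data known. Alternatives changed scaling, filter, call rule, variance model and arrays. No COS sequences are shown.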

Additional observations from a re-analysis of the deposited data

How the results depend on the processing

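The number of COS probe sets that rose was 5 on the deposited values, 4 after median centring, 5 after quantile normalization again, with a variance trend, with dim probe sets left out and by 2-fold difference alone, and 6 by limma's adjusted p alone, which adds COS12 and called 50.4% of all probe sets higher. By the other alternatives 18.3% to 24.5% of all probe sets rose. Without probe sets whose identifiers end in _s_at or _x_at it was 3, because COS4 and COS7 were no longer counted. Without each deletion-labelled array in turn it stayed at 5, by 2-fold difference with no test since no residual degree of freedom is left. No COS probe set fell under any of these 9 alternatives. The median difference of the members, 1.39, was 1.26 after quantile normalization again, 1.14 after median centring and 1.57 once COS10 was filtered out as dim, and it ranged from 1.35 to 1.42 without 1 of those arrays. Of 60 single-member comparisons 58 kept their call; COS4 dropped below 2-fold at 0.92 with median centring. Over all tested probe sets limma's adjusted p alone called 2773 higher and 1634 lower, against 1310 and 562 with the 2-fold minimum. No paired analysis was possible because the wild type has a single array without a replicate number.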

Other observations

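Other gene families with members near chromosome ends, not all of whose listed genes lie there, did not share 1 direction. Across all tested probe sets 23.8% rose and 10.2% fell, 18.3% and 14.1% after quantile normalization again, and 18.8% and 14.8% after median centring. Of 16 probe sets for 13 seripauperin genes, small secreted proteins of the PAU family, 2 were called higher and 2 lower (12.5% each). Their median difference was 0.10. PAU21 fell 6.65-fold, PAU17 rose 3.23-fold by 1 of its 2 sets and PAU5 2.55-fold by 1 of its 2 sets, and most of these sets can bind several family members. Under quantile normalization again these sets of PAU17 and PAU5 were under 2-fold, at 0.95 and 0.87, which left no rise and 2 falls. Of 8 sets for 5 aryl-alcohol dehydrogenase genes of the AAD family 3 rose, with a median of 0.33, and these belong to AAD3, at 7.45-fold, at least 2.48-fold and 2.27-fold, the last under 2-fold after quantile normalization again (0.54) and median centring (0.93). Under both scalings 1 set of AAD4 passed as a fall, at -1.62 and -1.24. Among 5 sets for vitamin genes of the THI5, SNZ and SNO families 20% rose and 40% fell. SNO1 rose 5.51-fold, while SNZ1 fell 3.99-fold and SNZ3 2.58-fold. The falls of this list went from 2 to 4 under each other scaling. SNZ3, SNO3 and THI13, among the 10 outermost genes of ends with a COS gene, differed by -1.37, -0.97 and -0.95. Their sets end in _s_at, and SNO3 and THI13 are named here outside the rule for named genes.

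The flocculins, cell wall proteins of adhesion together with their regulator FLO8, gave 1 rise and 1 fall among 5 (20% each). Of all tested probe sets 23.8% rose and 10.2% fell by the same rule. FLO10 read 2.46 on both deletion-labelled arrays against 1.42, not above background, and rose at least 1.54-fold by that bound. FLO1 fell 2.60-fold, from 3.46 to 2.07 and 2.09. FLO8, FLO9 and FLO11 differed by -0.92, -0.40 and -0.25. FLO8 passed as a fall after quantile normalization again (-1.45) and after median centring (-1.17), and FLO10 was under 2-fold after median centring (0.80), so the count was 1 rise and 2 falls or no rise and 2 falls. Under these scalings 18.3% and 18.8% of all tested probe sets rose, and 14.1% and 14.8% fell. No probe set carried the symbol of a helicase gene of the telomeric Y' elements (YRF1).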
